A study of Mus musculus with 6 samples.

Results

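The TRIM (tripartite motif) family was followed in bone marrow hematopoietic stem cells (HSCs) of the mouse. Members were all probes other than control spots whose RefSeq accession belonged to a gene named Trim and a number, with or without a final letter, except Trim10. The rule found 93 of 55681 probes, and these stood for 63 genes. On each of 6 two-colour arrays a Cdk6-/- sample labelled with Cy5 was set against a wild-type pool of the same treatment labelled with Cy3. The groups were untreated Cdk6-/- HSCs (n = 3), polyI:C-treated Cdk6-/- HSCs (n = 3), 1 pool of sorted untreated wild-type HSCs and 1 pool of sorted polyI:C-treated wild-type HSCs. Each pool was hybridised 3 times, so that its spread is technical and it counts as 1 sample. PolyI:C is a synthetic double-stranded RNA that induces type I interferon, and CDK6 is a cell cycle kinase. The sources used here do not give strain, age, sex, dose, time of treatment or the number of mice behind a sample or pool. The series calls the 3 samples of a treatment biological replicates, and no array had the dyes swapped.

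TRIM proteins are in most cases E3 ubiquitin ligases, built from a RING domain, 1 or 2 B-box domains and a coiled coil. The domain at the end of the protein sets what a member binds: a PRY-SPRY domain in many, NHL repeats or a PHD finger with a bromodomain in others. Many TRIM genes are induced by interferon, and their products restrict viruses or tune the sensors of foreign RNA and DNA. Interferon also drives dormant HSCs into the cell cycle, and polyI:C is a common way to bring this about in mice.

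A gene induced by type I interferon often carries an interferon-stimulated response element near its start. The promoters below are shown because 5 of them lie in the TRIM cluster of mouse chromosome 7 and hold the core of this element, GAAANNGAAA, on either strand. Trim21 lies elsewhere on the same chromosome, and Trim34b and Trim30b are cluster genes with no match in the window searched. Each line gives 130 bases, from 100 before the annotated start to 30 bases from the start on, 5′ to 3′ along the gene. Capitals mark the core on either strand. The sequences are from RefSeq on GRCm38.p6.
Trim34a, chr7:104244357-104244486, plus strand: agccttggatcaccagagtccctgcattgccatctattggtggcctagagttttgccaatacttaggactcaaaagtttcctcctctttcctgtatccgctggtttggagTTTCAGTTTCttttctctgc
Trim12a, chr7:104315466-104315595, minus strand: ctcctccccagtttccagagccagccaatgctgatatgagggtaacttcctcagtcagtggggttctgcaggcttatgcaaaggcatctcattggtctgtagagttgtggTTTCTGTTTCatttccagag
Trim12c, chr7:104353320-104353449, minus strand: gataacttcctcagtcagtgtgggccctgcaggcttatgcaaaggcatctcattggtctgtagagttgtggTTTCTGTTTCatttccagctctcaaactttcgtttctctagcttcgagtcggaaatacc
Trim30a, chr7:104465164-104465293, minus strand: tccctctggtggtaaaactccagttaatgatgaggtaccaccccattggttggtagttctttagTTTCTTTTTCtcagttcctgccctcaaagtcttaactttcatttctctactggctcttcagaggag
Trim30d, chr7:104507820-104507949, minus strand: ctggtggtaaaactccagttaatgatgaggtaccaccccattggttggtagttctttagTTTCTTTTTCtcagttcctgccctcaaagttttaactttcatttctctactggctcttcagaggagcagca
Trim21, chr7:102565453-102565582, minus strand: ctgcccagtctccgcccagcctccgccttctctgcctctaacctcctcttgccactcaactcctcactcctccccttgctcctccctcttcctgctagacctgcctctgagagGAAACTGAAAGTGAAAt
Trim34b, chr7:104329371-104329500, plus strand: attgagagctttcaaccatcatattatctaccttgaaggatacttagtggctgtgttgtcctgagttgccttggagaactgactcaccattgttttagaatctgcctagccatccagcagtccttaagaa
Trim30b, chr7:104358617-104358746, minus strand: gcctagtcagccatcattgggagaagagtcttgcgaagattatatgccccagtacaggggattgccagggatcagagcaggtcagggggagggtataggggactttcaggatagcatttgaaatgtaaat

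Shared runs were measured over the full windows of 300 bases, of which 130 are printed above. The windows of Trim30a and Trim30d shared an identical run of 118 bases, and those of Trim12a and Trim12c a run of 71 bases. These runs reach into bases not printed. The other 26 pairs among the 8 windows shared runs of 7 to 11 bases. In Trim21 the core occurred in 2 overlapping copies. Over all windows of 300 bases in the RefSeq table (250 before the start to 50 after it), 3.44% of 32851 held the core. Of 66 windows of TRIM genes, 10 held it (15.2%), and they belonged to 9 of 52 genes: Trim2, Trim5, Trim12a, Trim12c, Trim21, Trim26, Trim30a, Trim30d and Trim34a. A longer form, GAAANNGAAACT, was in 0.271% of all windows and in those of Trim30a, Trim30d and Trim34a. Windows that overlap or come from copied genes are not independent, and a match is a string of letters, not a shown binding site.

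Of the 63 genes, 45 (62 of 93 probes) were tested, because they had a probe well above background throughout the 3 arrays of a treatment, in either channel. The other 18 were too dim: Trim15, Trim17, Trim31, Trim36, Trim38, Trim40, Trim50, Trim52, Trim54, Trim58, Trim62, Trim63, Trim66, Trim67, Trim69, Trim72, Trim75 and Trim80. They include 3 of the 4 TRIM genes of striated muscle on the list used here, among them Trim63 and Trim72, and 2 interferon-linked members, Trim38 and Trim69. No probe was matched by accession to Trim5, Trim23, Trim30c or Trim43a. On all 6 arrays and in both channels, 37 of the 45 were above background. Trim29 and Trim7 were above it on all 3 arrays in only 1 of the 4 groups, Trim29 in untreated Cdk6-/- samples and Trim7 in the untreated wild-type pool. A gene kept through 1 high group had to differ, so the filter favours calls on these 2 genes.

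Of the 59305 spots on each array, controls aside, 47.0 to 76.5% were well above background in Cy5 and 54.4 to 75.6% in Cy3. The highest share in each channel came from polyI:C array 3, the only one on its slide. Log2 ratios correlated across genes with r from 0.49 to 0.54 between untreated arrays and with r = 0.56 between polyI:C arrays 1 and 2, but with r = 0.13 and 0.22 between polyI:C array 3 and the other two (genes are not independent replicates). The log2 ratio of Xist also set untreated array 3 (-3.98) and polyI:C array 3 (-3.42) apart from the other 4 arrays (0.42 to 1.87). What lies behind this was not tested. The values that move most without these 2 arrays are therefore given without them too. All 14 HSC markers listed were above background on every array in both channels, but their levels were not constant. In the wild-type pools 3 of the 14 were more than 2-fold brighter after polyI:C and 4 dimmer, beside 4.22% and 8.08% of all genes. In the untreated ratio of Cdk6-/- over wild type 12 of the 14 were above 0. Tek was lower there at a limma adjusted p under 0.05, as 9.93% of all genes were.

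Transcript levels after polyI:C were compared first, to ask how far the interferon-linked TRIM genes moved in each genotype. In the wild-type pools 4 of 13 tested interferon-linked TRIM genes were more than 2-fold brighter after polyI:C: Trim30d, Trim12c, Trim14 and Trim34b. Of all genes 4.22% were. Trim30b, another of the 13, was more than 2-fold dimmer, as 8.08% of all genes were. In Cdk6-/- samples the 4 brighter genes had mean differences of 0.87 to 1.03 log2 units, and none passed the test. Values below are log2 intensities after normalization within and between arrays; they compare samples for 1 gene, not 1 gene with another. Differences are treated minus untreated, with the standard error (SE) of limma's fit for Cdk6-/- samples, and with no test for the pools, where there is 1 sample per treatment.

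Trim30d belongs to the Trim30 group, whose best known member, Trim30a, restrains NF-kappaB signalling from Toll-like receptors. Its Cdk6-/- levels were 10, 10.80 and 11.77 on untreated arrays 1 to 3 and 12.01, 12.31 and 11.35 on polyI:C arrays 1 to 3. The groups overlapped, because untreated array 3 lay above polyI:C array 3. The difference was 1.03 (SE 0.48, limma adjusted p = 0.517), and without these 2 arrays it was 1.76 (adjusted p = 0.138). In the wild-type pools Trim30d read 10.68, 11.25 and 11.30 untreated and 12.50, 12.54 and 11.94 after polyI:C, a difference of 1.25 with no overlap between hybridisations.

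Trim12c is a rodent relative of the retroviral restriction factor TRIM5. In Cdk6-/- samples it read 10.25, 10.54 and 10.41 untreated and 11.40, 11.62 and 11.15 after polyI:C. Every treated sample was above every untreated one, and the difference was 0.99 (SE 0.31, unadjusted p = 0.0103, limma adjusted p = 0.289). The pools read 10.21, 10.71 and 10.23 untreated and 11.52, 11.53 and 11.69 treated, a difference of 1.20. The 3 tested probes of Trim12c did not move alike: their Cdk6-/- differences were 0.99, 0.41 and 0.16 and their pool differences 1.20, 0.78 and -0.13. The brightest probe stands for the gene here, and the mean over the 3 probes was 0.52 in Cdk6-/- samples.

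Trim34b, a PRY-SPRY member of the same cluster, was the other one of these 4 with separated Cdk6-/- samples and separated hybridisations of the pools. In the pools such separation is technical, and 21 of 45 TRIM genes (46.7%) had it, so it does not mark these genes out. The share over all genes is not given here. Its Cdk6-/- levels were 10.41, 10.99 and 10.33 untreated and 11.40, 11.74 and 11.30 treated (difference 0.90, SE 0.33, limma adjusted p = 0.383). The pools gave 10.77, 11.11 and 10.75 untreated and 11.82, 11.96 and 11.89 treated, a difference of 1.01. Trim14, which has no RING domain and is known as an adaptor at mitochondria in RNA sensing, read 9.35, 9.15 and 9.86 untreated and 10.73, 10.58 and 9.65 treated in Cdk6-/- samples. Here polyI:C array 3 fell within the untreated range, and the difference was 0.87 (SE 0.39, limma adjusted p = 0.496). Without both array 3s it was 1.41 (adjusted p = 0.138). Its pool levels went from 9.31, 9.28 and 9.34 to 10.64, 10.40 and 10.35, a difference of 1.15.

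Trim30a and Trim34a were less than 2-fold brighter in the treated pool, by 0.84 and 0.83, and differed by 0.37 (SE 0.45) and 0.23 (SE 0.45) in Cdk6-/- samples. For Trim30a the Cdk6-/- levels were 10.46, 11.32 and 11.05 untreated and 11.72, 11.79 and 10.43 treated. For Trim34a they were 10.52, 11.15 and 10.50 untreated and 11.48, 11.36 and 10.03 treated. In both genes polyI:C array 3 was the lowest of all 6 samples, while polyI:C arrays 1 and 2 were the highest. Without both array 3s the differences were 0.86 for Trim30a and 0.58 for Trim34a (limma adjusted p = 0.300 and 0.415). Trim25, the ligase that activates the RNA sensor RIG-I, read 11.73, 11.28 and 12.39 untreated and 12.51, 12.57 and 12.02 treated (difference 0.57, SE 0.38; pools 0.63), and without both array 3s its difference was 1.04 (limma adjusted p = 0.200). Trim12a read 11.95, 11.81 and 11.55 untreated and 12.07, 12.32 and 12.06 treated, with no overlap. The difference was 0.38 (SE 0.30, pools 0.18) at the brighter of its 2 tested probes. At the other probe, above background on all arrays, it was 1.05 in Cdk6-/- samples and 0.30 in the pools. The size of the change in Trim12a thus depends on the probe.

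The remaining 5 interferon-linked genes gave small or opposite values. Trim21, the cytosolic antibody receptor, has 2 copies of the core in its promoter window. Its treated Cdk6-/- levels of 10.26, 8.46 and 8.00 lay on either side of the untreated 9.09, 8.93 and 9.24 (difference -0.18, SE 0.54; pools 0.27), and without both array 3s the sign turned (0.35, limma adjusted p = 0.791). The treated pool itself gave 10.55, 9.12 and 8.91 for Trim21, a technical standard deviation (SD) of 0.89 and the widest of the 45 genes in that pool, where the median was 0.26. Trim26 differed by -0.53 (SE 0.34; pools -0.26), Trim56 by -0.12 (SE 0.40; pools -0.06) and Trim6 by 0.23 (SE 0.39; pools -0.25). Without both array 3s Trim56 had -0.54 and Trim6 0.61. Trim30b, described with the genotype ratios below, differed by -0.19 (SE 0.30) in Cdk6-/- samples and by -1.25 in the pools. Limma adjusted p-values of the last 9 genes in the Cdk6-/- samples ran from 0.694 (Trim26) to 0.959 (Trim56).

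**Figure D1:**
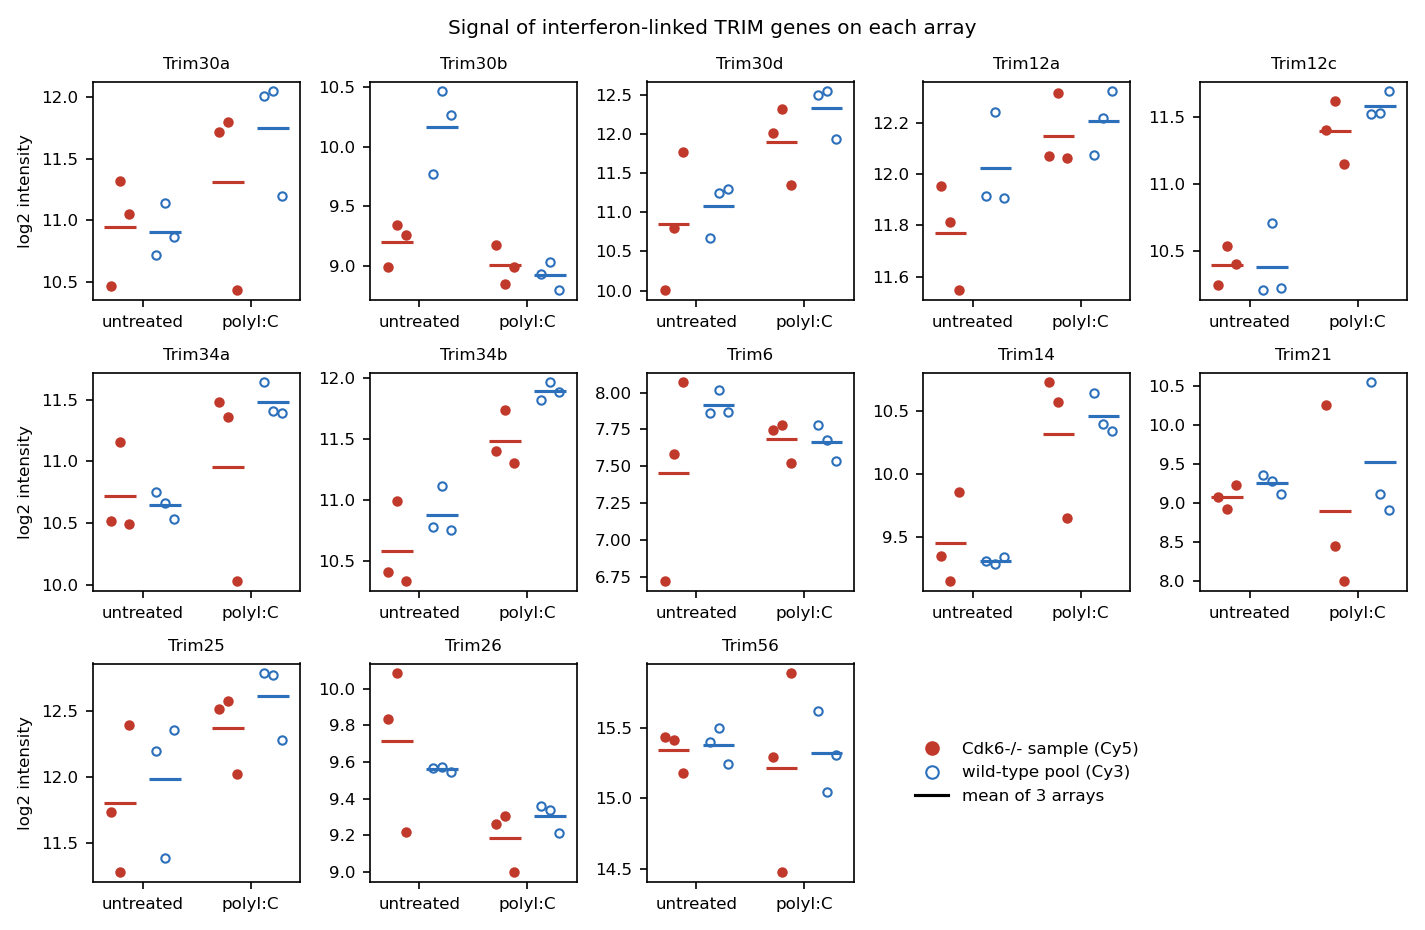
Log2 intensity (y axis, a separate scale for each gene) of 13 interferon-linked TRIM genes, untreated and after polyI:C. Filled red points are the 3 Cdk6-/- samples of a group, open blue points the 3 hybridisations of 1 wild-type pool, and bars their means; points run from array 1 to array 3. Points of Trim12c and Trim34b separate by treatment in Cdk6-/- samples and in hybridisations of the pools. The treated Cdk6-/- points of Trim30a, Trim34a and Trim14 include a low one from polyI:C array 3.

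As a group, the 13 interferon-linked genes had a median difference of 0.37 in Cdk6-/- samples (9 above 0, none called) and of 0.63 in the wild-type pools (9 above 0). Over all 22630 genes tested the medians were 0.03 and -0.00. Over the settings tried, the Cdk6-/- median of the 13 ranged from 0.13 (without untreated array 1) to 0.70 (without polyI:C array 3). Interferon response genes outside the family moved more on the same arrays. Of 48 tested, 39 were past 2-fold higher and 1 lower in the wild-type pools (median 1.71), where no test was run. In Cdk6-/- samples 45 of the 48 had differences above 0, and 3 passed the test. These 3 were Irf7, Usp18 and Cxcl9, with differences of 3.46 (SE 0.32), 2.74 (SE 0.30) and 2.72 (SE 0.32). Their limma adjusted p-values were up to 0.020. The count past 2-fold and the count of calls are different measures and do not compare the genotypes. No gene on the arrays was called in this comparison without polyI:C array 1, without any 1 of the untreated arrays, or without both array 3s. The median of the 48 genes in Cdk6-/- samples was 1.15. Irf7 is the transcription factor that amplifies interferon production, Usp18 removes ISG15 and damps the interferon receptor, and Cxcl9 is a chemokine.

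Across the whole family, 0 of 45 TRIM genes passed the adjusted threshold of 0.05 for polyI:C in Cdk6-/- samples, where 0.168% of all genes did. At an unadjusted p under 0.05 there were 5 (11.1%), against 10.3% of all genes: Trim12c, Trim34b and Trim46 higher, Trim59 and Trim68 lower. Cdk6-/- levels did not overlap between treatments for 9 genes (20%, against 17.0% of all genes), namely these 5, Trim12a and Trim9 higher, and Trim11 and Trim43c lower. In the wild-type pools 8 genes (17.8%) were past 2-fold, against 12.3% of all genes. The 4 brighter ones were those named above (8.89%, against 4.22%). The 4 dimmer ones (8.89%, against 8.08%) were Trim30b, Trim7, Trim3 (-1.10) and Trim11 (-1.09). A second tested probe of Trim3 gave only -0.13 in the pools. Shares of the family were thus near those of all genes, apart from the brighter side in the pools, which rests on 4 genes.

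Outside the interferon-linked set, Trim59 and Trim68 had the lowest differences in Cdk6-/- samples, together with Trim29. Trim59, a membrane-anchored member, read 11.17, 11.42 and 11.30 untreated and 10.51, 10.58 and 9.91 treated (difference -0.96, SE 0.32, limma adjusted p = 0.337). The pools gave 11.58, 11.57 and 11.40 untreated and 10.52, 10.83 and 10.36 treated, a difference of -0.94. At this probe the Cdk6-/- samples and the hybridisations of the pools thus separated by treatment. Trim68, a PRY-SPRY member, read 10.71, 9.95 and 9.58 untreated and 9.20 and 8.87 on polyI:C arrays 1 and 2, since its spot on polyI:C array 3 was left out as outlying or non-uniform. Its difference was -1.05 (SE 0.44, adjusted p = 0.463).

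Trim46, which bundles microtubules at the start of axons in neurons, did not pass the test but had no overlap between treatments in Cdk6-/- samples, with 7.69, 7.98 and 8.02 untreated against 8.93, 8.95 and 8.63 treated (difference 0.94, SE 0.30, limma adjusted p = 0.315). Its pool levels were 8.47, 8.38 and 8.29 untreated and 8.11, 8.33 and 8.44 treated, so that they overlapped (difference -0.08). The genotype ratio went from -0.78, -0.40 and -0.27 to 0.83, 0.62 and 0.19. The difference of the ratios was 1.03 (SE 0.27, limma adjusted p = 0.087) and was not called. Trim9, a neuronal relative of Trim46, differed by 0.73 at its tested probe (SE 0.35, limma adjusted p = 0.529), which was above background on none of the untreated and all 3 treated Cdk6-/- arrays. A dimmer probe of Trim9 that was not tested gave the opposite sign (-1.35).

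**Figure D2:**
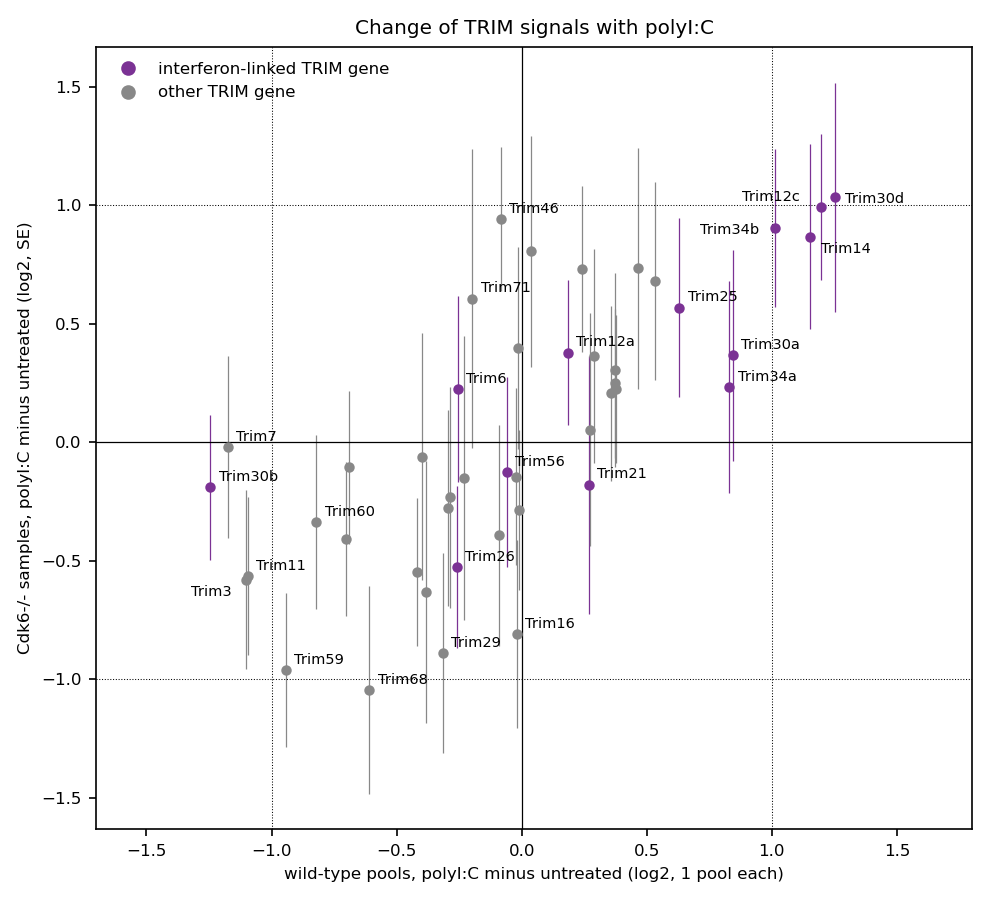
Each point is 1 of the 45 tested TRIM genes. The x axis is the log2 difference between the treated and the untreated wild-type pool (1 sample each), the y axis that between 3 treated and 3 untreated Cdk6-/- samples with its SE, and both channels share the same 6 arrays; dotted lines mark 2-fold. Trim30d, Trim12c, Trim14 and Trim34b lie at the upper right, and Trim30b and Trim7 lie at -1.25 and -1.18 on the x axis and near 0 on the y axis.

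The interferon-linked genes of the cluster sit next to each other on chromosome 7. From Trim6 to Trim30d RefSeq lists 18 genes, of which 10 are TRIM genes and 8 of these were tested. Treated minus untreated values were above 0 for 7 of the 8 in Cdk6-/- samples and for 6 of the 8 in the pools. At the probe standing for each gene, Trim34b, Trim12c and Trim30d had the highest values in both. Trim30b lies in RefSeq's order between Trim12c and Trim30a and was the only one of the 8 below 0 in both. Among 33 tested members with a promoter window, the 8 with the interferon element core had a median of 0.37 in Cdk6-/- samples and 0.55 in the pools (6 of 8 above 0 in each), and the 25 without it had -0.11 and -0.09. Trim34b, past 2-fold in the pools, was among those without it, and Trim21 and Trim26 were among those with it. Copied genes share promoter sequence, so these medians are a description.

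**Figure D3:**
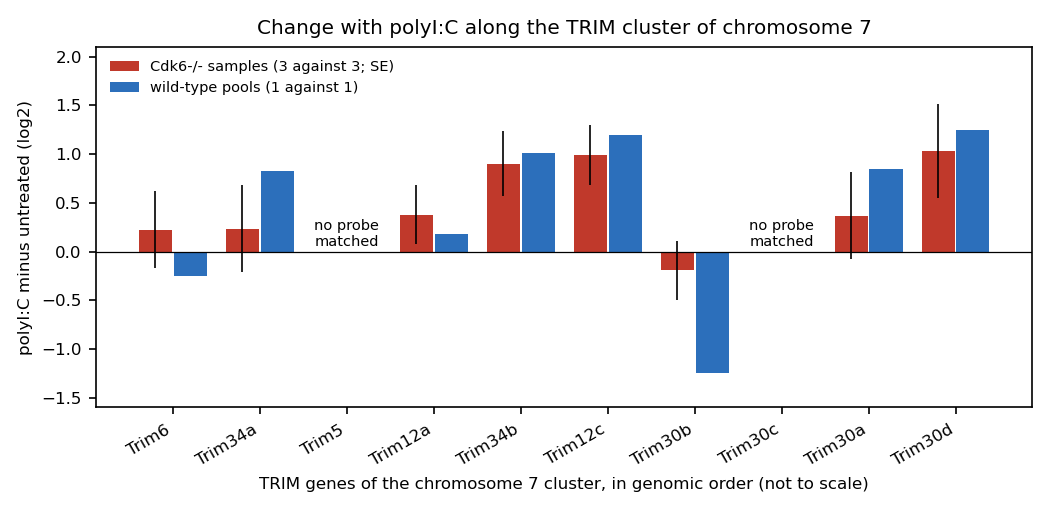
Bars give the log2 difference between polyI:C and untreated (y axis) for the TRIM genes of the chromosome 7 cluster in genomic order (x axis, not to scale). Red bars are Cdk6-/- samples with the SE of 3 against 3 and blue bars the wild-type pools, 1 against 1; Trim5 and Trim30c had no matched probe. The bars of Trim34b, Trim12c and Trim30d are the tallest, and Trim30b has a blue bar at -1.25.

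The genotype ratio set the Cdk6-/- samples against the wild-type pool of the same treatment. Since each pool is 1 sample, its p-values hold the spread of Cdk6-/- samples and of hybridisations but none between wild-type samples, and a call says only that Cdk6-/- samples differ from that pool. This holds for the difference of the 2 ratios too. In untreated cells 3 of 45 genes passed the threshold (6.67%, against 13.0% of all genes): Trim30b and Trim7 were lower (9.93% of all genes were) and Trim29 higher (3.05%) in Cdk6-/- samples. The filter kept Trim7 and Trim29 only through the 1 group where they were high, so these 2 calls were favoured in advance. After polyI:C only Trim71 passed (2.22%, against 0.968% of all genes), and it was higher, as 0.318% of all genes were. No TRIM gene passed in the difference of the 2 ratios, where 1.79% of all genes did; at an unadjusted p under 0.05 there were 7 (15.6%, against 16.5%). Medians of the 45 genes were -0.03 untreated and 0.02 after polyI:C, beside -0.05 and -0.02 for all genes. Because the dyes were not swapped, a dye bias of a probe cannot be told apart from a genotype difference in either ratio, but it cancels in their difference.

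Trim30b, a paralogue of Trim30a with little known function, had log2 ratios of Cdk6-/- over wild type of -0.79, -1.12 and -1.0 on the untreated arrays. After polyI:C they were 0.24, -0.19 and 0.20. All 3 untreated ratios lay below all 3 treated ones. The untreated mean was -0.97 (SE 0.17, SD 0.17, n = 3, limma adjusted p = 0.00717) and the treated mean 0.09 (SE 0.17, adjusted p = 0.876). The levels show where the gap lay: Cdk6-/- samples read 8.99, 9.34 and 9.26 untreated and 9.18, 8.85 and 8.99 treated, while the wild-type pool read 9.77, 10.46 and 10.26 untreated and 8.93, 9.04 and 8.79 treated. The untreated wild-type pool was thus the high one, and the other 3 groups overlapped. The difference of the ratios was 1.05 (SE 0.25, limma adjusted p = 0.0624), 1.13 on slide 1 and 0.93 on slide 2, and it did not pass. The untreated call held in all 17 settings in which this ratio was fitted, the main one included, with adjusted p up to 0.0491 where the gene was followed by name.

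Trim7, a PRY-SPRY ligase known to bind glycogenin, was likewise highest in the untreated wild-type pool, close to background. Its ratios were -1.35, -0.54 and -1.28 untreated (mean -1.06, SE 0.21, SD 0.45, limma adjusted p = 0.0109) and -0.22, 0.40 and 0.12 after polyI:C (mean 0.10). Wild-type levels were 8.01, 8.22 and 8.02 untreated and 6.92, 6.97 and 6.85 treated. Cdk6-/- levels were 6.66, 7.69 and 6.74 untreated and 6.70, 7.37 and 6.96 treated, with 1 of 3 arrays above background in each treatment. Leaving out untreated array 1 or untreated array 3 ended the untreated call (adjusted p = 0.0719 and 0.0705). With no filter on dim probes another probe stood for the gene; its untreated ratio had the opposite sign (0.24) and was not called, and the stricter filter did not keep Trim7. The difference of the ratios was 1.16 (SE 0.30, adjusted p = 0.0835), and it was called only without untreated array 2 (1.41, limma adjusted p = 0.0474) among the fits run.

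Of 8 marker lists of other cells, 4 had their highest summed intensity in the untreated wild-type pool, with no overlap with another group. Trim30b was highest there too. So was Trim7, but the filter kept Trim7 only through that group, so its place there was favoured in advance. The lists were B cell, granulocyte, monocyte and macrophage, and endothelial and stromal markers. A sum is weighted to its brightest genes. In the pools 2 of 9 monocyte and macrophage markers and 2 of 9 endothelial and stromal markers were higher after polyI:C, and 0 B cell or granulocyte markers were. In the untreated ratio 2 monocyte and macrophage markers were above 0. The summed level of 10 B cell markers was 14.85 to 14.98 (log2) in the untreated pool, 12.26 to 12.44 in the treated pool, 12.81 to 13.85 in untreated Cdk6-/- samples and 12.02 to 12.50 in treated ones, so that untreated Cdk6-/- samples lay above both treated groups. All 10 were above background on all untreated arrays in both channels, and 7 of the 10 were called lower in untreated Cdk6-/- samples. The 9 granulocyte markers summed to 18.50 to 19.01 in the untreated pool, 16.37 to 16.80 in the treated pool, and 17.46 to 18.11 and 17.42 to 17.89 in untreated and treated Cdk6-/- samples. The 9 tested endothelial and stromal markers summed to 14.46 to 14.54 and 12.42 to 12.61 in the pools, and to 12.89 to 13.69 and 12.10 to 12.61 in Cdk6-/- samples; Lepr was dim on all Cdk6-/- arrays. The 9 monocyte and macrophage markers summed to 14.99 to 15.14 and 13.75 to 13.99 in the pools, and to 14.34 to 14.64 and 13.70 to 14.56 in Cdk6-/- samples. The other 4 lists did not have this order. By their sums, T and NK cell markers and megakaryocyte and platelet markers were higher in both treated groups than in both untreated ones (14.06 to 14.39 against 12.85 to 13.37, and 15.10 to 15.80 against 14.07 to 14.49). Single genes went the other way: 1 of 9 and 3 of 10 were lower in the treated pool, and 1 and 2 in treated Cdk6-/- samples. The 10 erythroid markers summed to 16.28 to 16.76 and 15.19 to 16.48 in the pools. In Cdk6-/- samples they summed to 16.38 to 16.76 and 14.03 to 15.99. Treated Cdk6-/- samples thus lay below both untreated groups, and the treated pool overlapped every group. The 7 tested plasmacytoid dendritic cell markers summed to 14.91 to 15.03 and 15.19 to 15.31 in the pools. In Cdk6-/- samples they summed to 15.43 to 15.54 and 14.95 to 15.90, so that untreated ones lay above both pools. The part of these markers in the Trim30b and Trim7 ratios was not tested, and in bulk RNA fewer cells of a type and less RNA per cell cannot be told apart.

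Trim29, which has no RING domain and is known from epithelia, had ratios of 1.1, 0.54 and 0.60 untreated (mean 0.74, SE 0.21, SD 0.31, limma adjusted p = 0.0442) and -0.35, 0.35 and 0.51 treated. Cdk6-/- levels were 8.48, 7.73 and 8.11 untreated and 6.47, 7.27 and 7.89 treated, and pool levels 7.38, 7.19 and 7.51 untreated and 6.82, 6.93 and 7.39 treated. The treated samples overlapped the untreated ones, and 1 of 3 treated Cdk6-/- arrays was above background. Of 6 fits that each left out 1 array, 2 kept the call; it was lost without any 1 of the untreated arrays or without polyI:C array 2. Trim29 was also not called with no filter on dim probes, and the stricter filter did not keep it.

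Trim71 (LIN41) is an NHL-repeat protein and a target of let-7 that is best known from embryonic stem cells. Its ratios were 0.48, 0.53 and 0.24 untreated (mean 0.42, SE 0.20, adjusted p = 0.199) and 0.92, 1.01 and 1.73 after polyI:C (mean 1.22, SE 0.20, SD 0.45, limma adjusted p = 0.0265). All 3 treated ratios lay above all untreated ones, but the difference of 0.80 (SE 0.28) did not pass (adjusted p = 0.181). The single channels moved more between arrays than the ratio: the untreated pool read 16, 13.71 and 15.71 on its 3 hybridisations, a technical SD of 1.25 and the widest of the 45 genes in that pool (median 0.14). The other tested probe of Trim71 gave a treated ratio of 0.13 and an untreated one of 0.19. That probe was far dimmer, with a mean log2 intensity of 7.79 against 15.43 for the called one. In Cy5 it was above background on 1 of 3 polyI:C arrays, so the 2 probes are not equal measures of the gene. The call was lost with the scanner software's processed signals (1.0, adjusted p = 0.122) and with the mean over both probes (0.68, adjusted p = 0.204), and without untreated array 3 or any 1 of the polyI:C arrays; 2 of 6 fits that left out 1 array kept it.

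**Figure D4:**
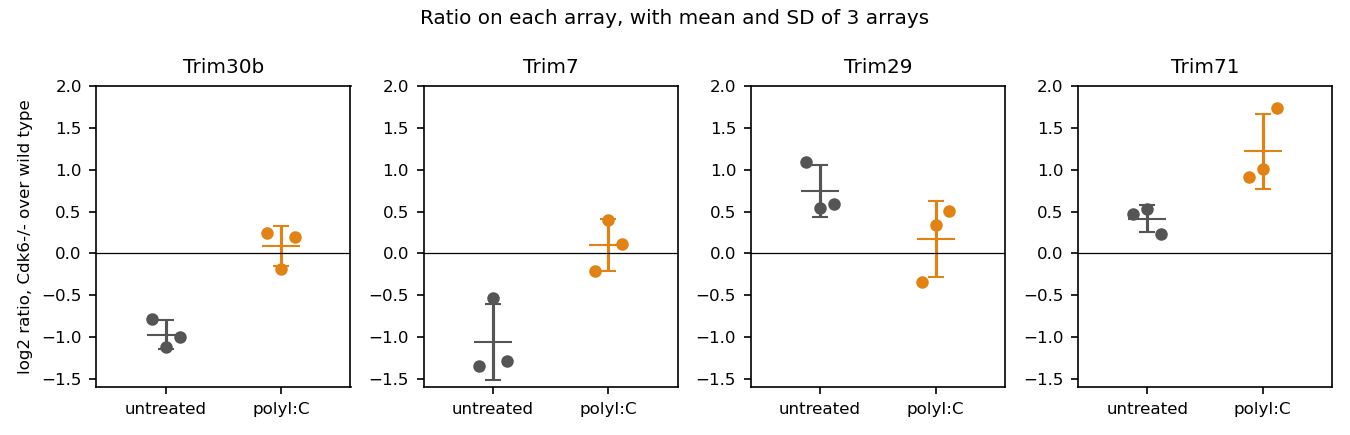
Log2 ratio of Cdk6-/- over wild type (y axis) on each array for the 4 called TRIM genes, by treatment; points are arrays 1 to 3, and bars give the mean and SD. The untreated ratios of Trim30b lie between -1.12 and -0.79 and its treated ones on either side of 0; the treated ratios of Trim71 lie between 0.92 and 1.73.

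The interferon-linked members were not tested as a group in either ratio. Their median was -0.18 untreated (5 above 0, 8 below, with Trim30b called) and -0.19 after polyI:C (2 above, 11 below, none called). Without both array 3s the untreated median was -0.20 (2 above 0, 11 below); with median centring in place of loess it was 0.32 (11 above 0), where the median of all genes was 0.30. Trim21 had the lowest treated ratio of the family, with -0.29, -0.67 and -0.91 on the 3 arrays (mean -0.62, SE 0.19, limma adjusted p = 0.176), Trim34a the next with -0.16, -0.05 and -1.36 (mean -0.53, SE 0.26), and Trim30a followed with -0.29, -0.25 and -0.77 (mean -0.44, SE 0.19, adjusted p = 0.340). In each of these 3 genes polyI:C array 3 had the lowest ratio. Without both array 3s the treated median of the 13 was -0.11 (4 above 0, 9 below). With median centring in place of loess it was 0.07 (10 above 0), but the median of all genes then was 0.21, and 9 of the 13 lay below it. Interferon response genes outside the family leaned the same way after polyI:C (median -0.43, 44 of 48 below 0), with 1 called, Cmpk2 (-0.92, SE 0.16, adjusted p = 0.035); without both array 3s no gene on the arrays was called in the treated ratio. In the untreated ratio 6 of these 48 were called, all higher in Cdk6-/- samples, with a median of 0.10. In the difference of the 2 ratios 4 of the 48 were called, all below 0: Ifih1, Eif2ak2, Herc6 and Iigp1. Of all genes 1.79% were called there.

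Sensors and adaptors that TRIM proteins act on were taken from a list of 15 genes, of which 14 were tested. Ifih1, which encodes the double-stranded RNA sensor MDA5, had untreated ratios of 0.86, 0.60 and 0.60 (mean 0.68, SE 0.18, limma adjusted p = 0.032) and treated ratios of -0.64, -0.26 and -0.83 (mean -0.58, adjusted p = 0.190). The difference of -1.26 (SE 0.25, adjusted p = 0.039) was called, the only call on this list in that comparison, where no TRIM gene was called. With slide as a block, or without both array 3s, no gene on the arrays was called in this difference, Ifih1 included. Irf7 was the only one of the 14 called in Cdk6-/- samples, where 9 of the 14 had differences above 0. The other 12 were called in none of the 4 comparisons; among them Ddx58, which encodes the TRIM25 substrate RIG-I, differed by 0.70 (SE 0.41) in Cdk6-/- samples and by 1.11 in the pools.

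Members of the family by structure but not by name were Pml, Mid1, Mid2 and Mefv, of which 3 were tested. Mid1, a microtubule-bound ligase and the founding member of the group to which Trim46 and Trim9 belong, was lower in Cdk6-/- samples on every array, with ratios of -2.12, -2.21 and -2.66 untreated and -2.18, -2.25 and -1.76 treated. The means were -2.33 (SE 0.19, limma adjusted p = 0.000385) and -2.06 (SE 0.19, adjusted p = 0.00323), and their difference did not pass the test (0.27, SE 0.26, adjusted p = 0.672). Without both array 3s the treated call was lost, as no gene on the arrays was called. No gene with a Trim name had a ratio as far from 0. Pml, the nuclear body protein, and Mefv (pyrin) were not called in any of the 4 comparisons; Mefv had -1.02 (SE 0.34, adjusted p = 0.076) untreated and 0.63 treated.

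By the domain at the end of the protein, calls were spread thinly. The 3 tested chromatin cofactors with a PHD finger and bromodomain, Trim24, Trim28 and Trim33, had untreated ratios of -0.19, -0.22 and -0.20 and no call; Trim28 (KAP1) silences endogenous retroviruses. The 4 NHL-repeat genes held 1 call, Trim71. The 4 genes without a RING domain held 1, Trim29; among them Trim16 had untreated ratios of 0.73, 0.27 and 0.64 and treated ratios of -0.20, -0.01 and -0.53 (difference -0.79, SE 0.26, limma adjusted p = 0.153). A second, dimmer probe of Trim16 gave the opposite sign untreated (-0.99) and was not above background on any untreated Cdk6-/- array. Of 10 tested PRY-SPRY genes outside the interferon-linked list, 1 was called, Trim7. Since the filter favoured the calls on Trim29 and Trim7, they say nothing of their classes. Trim60, in the same list, had untreated ratios of -0.04, -0.38 and 0.80 and treated ratios of 0.86, 0.42 and 0.56 (mean 0.61, SE 0.23, adjusted p = 0.279), and Trim68 had the highest untreated mean of the family (0.75, SE 0.24, adjusted p = 0.0696), which was called without untreated array 3 (1.08, limma adjusted p = 0.0373). The 4 tested genes with other C-terminal domains held no call.

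The 24 tested members not chosen by name had untreated ratios from -0.42 (Trim37) to 0.50 (Trim13) and treated ratios from -0.35 (Trim44) to 0.40 (Trim55). Their differences with polyI:C ran from -0.63 (Trim39) to 0.81 (Trim37) in Cdk6-/- samples. Of the 16 genes with more than 1 tested probe, 11 had the same sign in all probes for the untreated ratio, and 11 for the difference with polyI:C in Cdk6-/- samples.

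**Figure D5:**
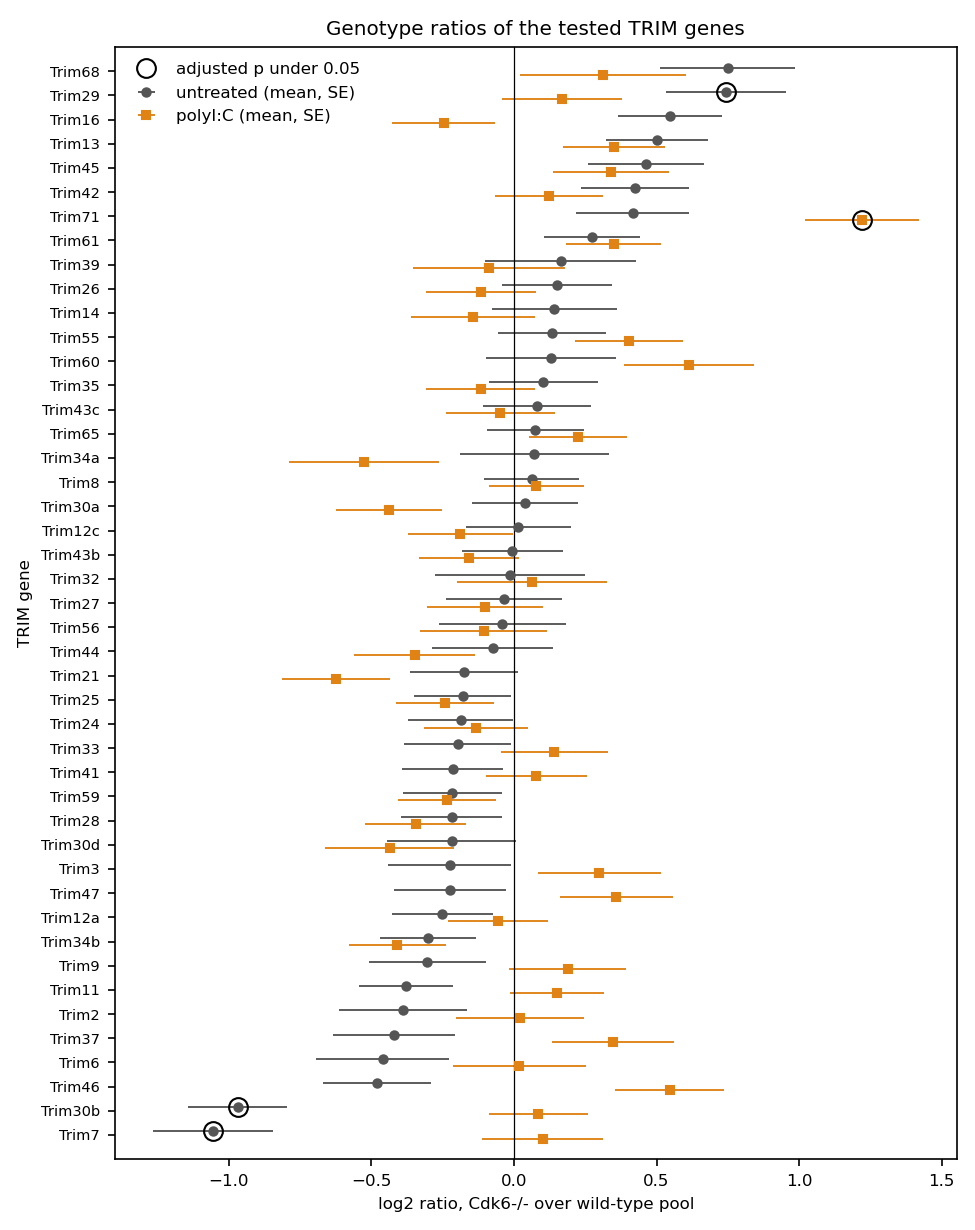
Mean log2 ratio of Cdk6-/- over wild type (x axis, with SE) for the 45 tested TRIM genes (y axis), ordered by the untreated ratio; grey circles are untreated and orange squares polyI:C-treated, 3 arrays each. Rings mark adjusted p under 0.05: Trim30b, Trim7 and Trim29 untreated, and Trim71 treated; most other means lie within 0.5 of 0.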

How the data were processed

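Per the labels' protocols, whole-transcriptome amplification (WTA2) preceded labelling with guanine-binding platinum dyes. Per the file headers, the arrays were annotated on mm9 and scanned spots were read with Agilent Feature Extraction 11.5.1.1. Median and background intensity per spot were used from the deposited scanner files; the log2 value table equals the ratio of their processed Cy5 and Cy3 signals and was used for a check, as was the authors' log10 ratio. Flags (other) were deposited beside them. Here, signals were corrected with normexp (offset 50) and loess and fitted with limma 3.58.1 (R 4.3.3) over all 6 arrays, a mean per treatment, leaving 4 residual degrees of freedom. Levels were also scaled between arrays (Aquantile). Flagged spots (0.657%) were left out. A gene's brightest tested probe stood for it, and p-values were adjusted over 22630 genes (Benjamini-Hochberg, threshold 0.05). The scripts were tested on simulated data. The number of arrays and signals near background limit the precision. Symbols came from RefSeq (GRCm38.p6). Genes named are those called in any comparison, the interferon-linked list, and the 3 highest and 3 lowest members per comparison; Trim3, Trim11, Trim9, Trim43c and the group examples were added after their values were seen. Members and lists were chosen with earlier results of these data known. The plan named other signal columns for background correction; median signals were used. Alternatives changed normalization, signals, offset, filter, probe choice, slide block and arrays left out.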

Additional observations from a re-analysis of the deposited data

Results flagged for a closer look

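In 3 TRIM genes and 2 other genes described, all 3 untreated genotype ratios had one sign and all 3 treated ratios the other. The pattern was looked for only in tested TRIM genes and the other genes given values here. Its share over all genes was not computed, so these counts are not a result about the family. For Trim16 the mean ratio went from 0.55 untreated to -0.25 after polyI:C, a difference of -0.79 (SE 0.26, limma adjusted p = 0.153). For Trim46 it went from -0.48 to 0.55, a difference of 1.03 (SE 0.27, limma adjusted p = 0.087), and for Trim11 from -0.38 to 0.15, a difference of 0.53 (SE 0.23, limma adjusted p = 0.291). For Mefv the difference was 1.65 (SE 0.48, limma adjusted p = 0.114). None of these 4 passed the threshold, and all were picked for this pattern of signs. For Ifih1 the difference of -1.26 (SE 0.25, limma adjusted p = 0.0388) passed it, but not with slide as a block or without both array 3s. Eif2ak2, Herc6 and Iigp1, which were not searched, had the same pattern. Their differences also passed, and were lost in the same settings.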

How the results depend on the processing

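Called TRIM genes in the untreated ratio (3) became 9 (7 higher, 2 lower) with median centring in place of loess, where the median of all genes was 0.30 in place of -0.05. They became 5 with the mean over a gene's probes, 7 with a fit on all probes, 1 with no filter on dim probes, and 1 with only probes above background in both channels on all arrays. For the polyI:C ratio (1) the count was 2 with median centring and 0 with processed signals, no filter, probe means, a trended robust prior, a separate fit, or without both array 3s, a setting in which no gene at all was called in this ratio, in the difference of ratios or in Cdk6-/- samples. For the difference of ratios (0) it was 1 with probe means (Trim30b, adjusted p = 0.0499). Leaving out 1 array gave 1 to 3 calls untreated, 0 to 1 after polyI:C and 0 to 1 in the difference of ratios. The count for polyI:C within Cdk6-/- samples was 0 in each alternative run, which says nothing of stability, since a count of 0 cannot fall and the 38 calls among all genes themselves fell to 0 without any 1 of the untreated arrays or without polyI:C array 1. Counts for the wild-type pools ran from 6 to 8; leaving out arrays, offset 16 and no scaling between arrays were added for the pools after the data were seen. Trim56 turned from near 0 to 1.09 untreated (adjusted p = 0.00508) and 1.12 after polyI:C (adjusted p = 0.00604) with median centring, and Trim7 in the pools to 0.60 with no filter, where another probe stood for it; the cause of the former was not tested. No paired analysis was possible because the labels pair no samples and array numbers are only names. Slide as a block was fitted for the difference of ratios, where no gene of all was then called, and for polyI:C within Cdk6-/- samples, both with 0 TRIM calls before and after; it was not run for the untreated or the polyI:C ratio, where the TRIM calls lie.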
